A study of Mus musculus with 4 samples.

Results

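The genes described here are 10 suprabasal keratins, the filament proteins that epithelial cells make once they have left the basal layer, out of 24453 genes in the files. They were taken by symbol. The oral set holds 6 genes, Krt4, Krt13, Krt24, Krt76, Krt78 and Krt80, and the epidermal set holds 4, Krt1, Krt10, Krt2 and Krt77. RNA was sequenced from lining cells of the mouse tongue on embryonic day 16, sorted for the epithelial surface protein EpCAM from tongues cut to leave out the circumvallate papilla. There were 2 libraries from Ring1a-/- Ring1bfl/fl K14-Cre+ embryos, called 2KO, and 2 labelled Control, whose alleles the labels do not spell out. In the 2KO genotype Ring1a (Ring1) is absent from the germline and Ring1b (Rnf2) is a floxed allele cut by a Cre recombinase driven by the Krt14 promoter, which is active in basal keratinocytes. Their proteins are the E3 ligases of Polycomb repressive complex 1, which mark histone H2A and help to hold genes of other lineages off. The comparison asks how keratin genes of the tongue lining differ between these genotypes. The protocol calls the sorted cells basal; suprabasal keratins were nevertheless measured in all 4 libraries.

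Keratins are built as pairs of an acidic type I and a basic type II chain, so each cell layer makes at least one of each. Basal cells of stratified epithelia use Krt5 with Krt14 and Krt15. Cells that move up through the epidermis switch to Krt1 with Krt10 and later add Krt2, whereas cells that move up through the soft lining of the mouth and oesophagus switch to Krt4 with Krt13. Cornified sites in the mouth, such as the hard palate, also use Krt1, Krt10 and Krt76.

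All 6 oral keratins were lower in the 2KO libraries, by 2.87-fold for Krt80 to 15.6-fold for Krt24, and the most abundant of them, Krt13, was 6.72-fold lower. Of the epidermal keratins, Krt1 averaged 62.4 ± 44.2 FPKM in 2KO and 64.4 ± 25.4 FPKM in control libraries (SD, n = 2 each), Krt10 had a lower value that missed the threshold, and Krt2 and Krt77 were too sparse to test. Counted over the sets, 6 of 6 tested oral genes fell and 0 of 2 tested epidermal genes passed in either direction, beside 4.92% of all 15336 genes tested that were called lower and 7.00% called higher (edgeR quasi-likelihood test, adjusted p under 0.05). Both 2KO libraries lay below both control libraries in CPM for 7 of the 8 tested members, all but Krt1, and for 28.7% of all genes tested. With each library left out in turn, 4 to 6 oral genes were called lower, the 4 without control replicate 1, and 0 to 2 epidermal genes, the 2 without 2KO replicate 1. DESeq2, limma-voom and upper-quartile scaling each called 5 oral genes lower, filtered FPKM values called 3 and unfiltered FPKM values 0. In these bulk libraries, fewer cells of an upper layer and less keratin RNA per cell cannot be told apart.

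The type I members lie on chromosome 11 and the type II members on chromosome 15, all transcribed from the minus strand (mm10 coordinates, GENCODE M21). RefSeq promoter sequences of build GRCm38.p6 starting at the annotated gene start were matched for 7 of the 10 members. The 250 bases before the start are shown, 5′ to 3′ on the gene's strand, for the most abundant oral member, for Krt24, for the oral gene next to the epidermal genes on chromosome 15, and for an epidermal member. Capitals mark matches to a TATA box (TATAA), the CACCC element that KLF factors bind (CCACCC) or an AP-1-like motif (TGANTCA). N stands for any base, and each motif was searched on both strands.
Krt13, chr11:100121567-100121816: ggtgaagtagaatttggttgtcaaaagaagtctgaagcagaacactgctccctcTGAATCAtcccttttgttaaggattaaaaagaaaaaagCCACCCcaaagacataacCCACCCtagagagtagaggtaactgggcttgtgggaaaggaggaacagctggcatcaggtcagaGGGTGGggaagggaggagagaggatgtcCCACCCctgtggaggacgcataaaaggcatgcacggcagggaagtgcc
Krt24, chr11:99285263-99285512: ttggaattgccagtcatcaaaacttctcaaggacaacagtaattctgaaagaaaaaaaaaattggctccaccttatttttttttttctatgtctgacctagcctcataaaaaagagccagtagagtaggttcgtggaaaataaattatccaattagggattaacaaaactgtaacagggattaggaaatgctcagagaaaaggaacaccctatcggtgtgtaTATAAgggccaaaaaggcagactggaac
Krt76, chr15:101892921-101893170: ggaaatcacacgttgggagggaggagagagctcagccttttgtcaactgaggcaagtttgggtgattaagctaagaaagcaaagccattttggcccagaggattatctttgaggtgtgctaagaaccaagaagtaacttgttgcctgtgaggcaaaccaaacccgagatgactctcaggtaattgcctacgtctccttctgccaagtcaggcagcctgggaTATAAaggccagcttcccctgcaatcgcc
Krt10, chr11:99389365-99389614: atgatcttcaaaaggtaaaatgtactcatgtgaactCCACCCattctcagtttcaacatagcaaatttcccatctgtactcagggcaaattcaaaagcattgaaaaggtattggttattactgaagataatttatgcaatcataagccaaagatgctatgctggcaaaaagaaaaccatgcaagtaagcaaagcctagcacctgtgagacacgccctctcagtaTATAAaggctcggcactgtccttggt
The Krt13 window held 4 matches to CCACCC, an element found in 28.1% of all 32851 promoter windows of this length, and 1 match to TGANTCA, found in 6.75%. No TATAA was in it. Krt24, Krt76 and Krt10 each held a TATAA beginning 28, 29 and 26 bases before the start, as did Krt2 at 27 bases. That motif occurs in 22.8% of all windows, a share that counts a match at any position in the window. Krt10 also held 1 CCACCC. The Grainyhead-like motif AACNGGTT, in 1.79% of windows, was not found in any of the 7. Of the 4 oral members searched, Krt24 and Krt76 held a TATAA and Krt13 and Krt78 did not. A match describes letters and not a bound site, and a window without a match may hold a variant of the motif. The motif letters were chosen after the sequences had been seen.

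The libraries held 18039767 and 20545262 counts in 2KO replicates 1 and 2, and 20624055 and 16256569 in control replicates 1 and 2. The ribosomal RNA precursor Rn45s took 22.9% and 20.2% of counts in 2KO, against 16.7% and 15.3% in control. Counts over the whole of each targeted gene were not reduced in libraries labelled 2KO, where the log2 fold change was 0.85 for Ring1 (adjusted p = 0.101) and 0.56 for Rnf2 (adjusted p = 0.126), and such counts do not resolve single deleted exons. Directions below are therefore those of libraries labelled 2KO. Basal keratinocyte markers were abundant in all 4 libraries, with summed levels of 10625 and 11513 CPM in 2KO and 15303 and 12538 CPM in control, and Epcam averaged 230.3 ± 20.4 CPM in 2KO and 205 ± 22.7 CPM in control (SD, n = 2 each). CPM are counts scaled to the TMM-adjusted library size. Since nothing in the labels ties each replicate to its own embryo or litter, p-values reflect only how much these libraries vary, which may be technical.

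Krt13 and Krt24 are the type I chains of the oral set. Krt13, the partner of Krt4 in soft oral lining (chromosome 11, 100117327 to 100121566), stood at 239 and 104 CPM in the 2KO libraries, against 1359 and 946 CPM in the control libraries. Its highest 2KO value was thus well under its lowest control value, and the log2 fold change was -2.75 (standard error 0.32, adjusted p = 0.000491). Krt24, a keratin of differentiating keratinocytes (chromosome 11, 99279959 to 99285262), stood at 19.8 and 7.92 CPM in 2KO, against 207 and 224 CPM in control. Its 2KO values were far below its control values, with a log2 fold change of -3.96 (standard error 0.34, adjusted p = 8.65e-05). The control libraries differed little in Krt24, whereas 2KO replicate 1 held 2.51 times the level of 2KO replicate 2. Both calls held in 14 of 15 alternative analyses, the exception being unfiltered FPKM values, where no gene of the series was called.

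Krt4, the type II partner of Krt13 (chromosome 15, 101918535 to 101924735), stood at 282 and 114 CPM in the 2KO libraries and at 787 and 503 CPM in the control libraries. The groups did not overlap, and the log2 fold change was -1.70 (standard error 0.34, adjusted p = 0.0100). Its 2KO libraries differed by 2.48-fold, against 3.26-fold between the genotypes. The Krt4 call ended with DESeq2 (adjusted p = 0.0783) and on FPKM values; over 15 alternatives its adjusted p ran between 8.77e-23 and 0.192.

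The other type II members were scarcer. Krt80, a type II keratin of many epithelia (chromosome 15, 101347444 to 101370162), was at 46.6 and 47.9 CPM in 2KO, against 169 and 103 CPM in control. Its 2KO replicates were almost equal and the groups did not overlap, with a log2 fold change of -1.52 (standard error 0.23, adjusted p = 0.00186). Exons of an antisense gene, Gm35853, cover 4.11% of its exon bases on the other strand. Krt76, known from the hard palate and gums (chromosome 15, 101884351 to 101892920), was at 1.25 and 0.693 CPM in 2KO, against 22.7 and 4.40 CPM in control. Control replicate 1 held 5.17 times the level of control replicate 2, so the size of its fall rests on that library. The log2 fold change was -3.81 (standard error 0.75, adjusted p = 0.00879), and without control replicate 1 it was -2.15 and no longer called (adjusted p = 0.126; range 2.94e-10 to 0.227 over 15 alternatives). Krt78, a keratin of upper layers of stratified epithelia (chromosome 15, 101946001 to 101954287), was at 1.08 and 0.148 CPM in 2KO, the second being 3 reads, against 6.23 and 4.40 CPM in control. It passed narrowly, with a log2 fold change of -3.12 (standard error 0.91, adjusted p = 0.0475), and 8 of 15 alternatives kept the call. It was lost when control replicate 1 was left out (-2.82, adjusted p = 0.0711) and without 2KO replicate 2 (-2.30, adjusted p = 0.131), in a range of 0.00120 to 0.131.

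**Figure D1:**
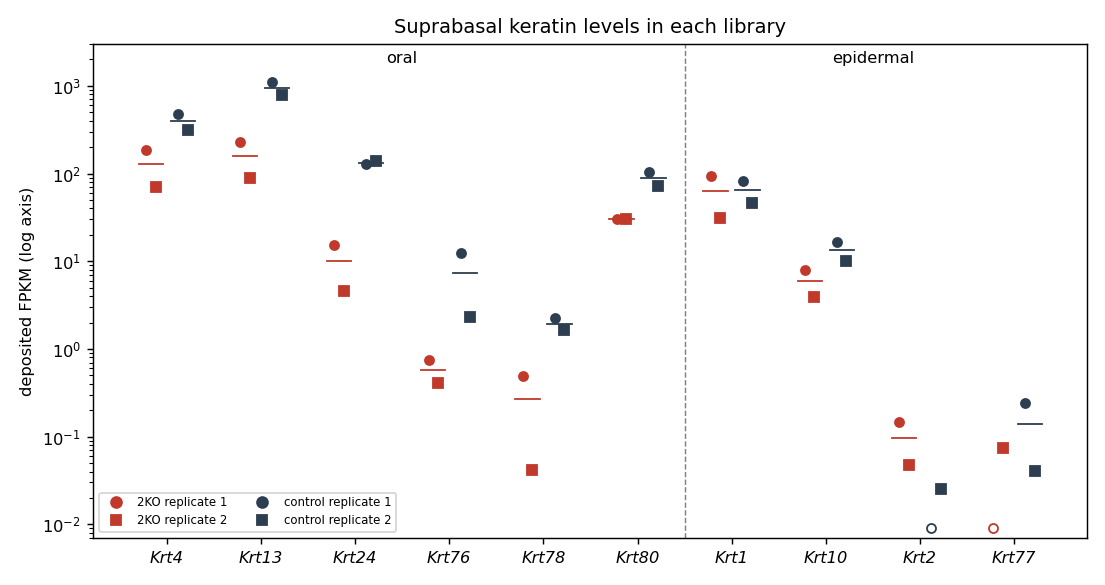
Deposited FPKM of each of the 10 keratins in each library on a log axis, 2KO in red and control in dark blue, with circles for replicate 1, squares for replicate 2 and bars for group means. Open symbols at the bottom mark values listed at 0, and their groups have no mean bar; all 6 oral keratins have both 2KO libraries below both control libraries, whereas Krt1 values interleave.

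Krt1 and Krt10 are the filament pair of the epidermal spinous layer. Krt1 (chromosome 15, 101845426 to 101850794) was at 169 and 60.6 CPM in the 2KO libraries and at 169 and 95.2 CPM in the control libraries. The highest values of both groups were almost the same, and the spread inside each group exceeded the difference between them. Its log2 fold change was -0.21 with a 95% interval of -1.06 to 0.64 (adjusted p = 0.780). This does not show that Krt1 was unaltered. The Krt1 interval lay above the estimates of all 6 oral members and above the intervals of Krt13, Krt24, Krt76 and Krt78. It overlapped the intervals of Krt4 (-2.46 to -0.95) and Krt80 (-2.02 to -1.02). Krt1 was not tested against any oral member. Without 2KO replicate 1 it was called lower (log2 fold change -1.13, adjusted p = 0.000844; range 0.000844 to 0.913 over 15 alternatives), and without control replicate 1 or 2KO replicate 2 the value was positive (0.29 and 0.34).

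Krt10 (chromosome 11, 99385254 to 99389364) was at 11.9 and 8.31 CPM in the 2KO libraries, against 27.1 and 16.1 CPM in the control libraries. Both 2KO values lay below both control values. The log2 fold change of -1.10 (95% interval -1.84 to -0.35) missed the threshold at an adjusted p of 0.0582. DESeq2 called it lower (adjusted p = 0.0381), as did 5 of 15 alternatives in all, in a range of 0.00210 to 0.270.

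Krt2, the keratin of the upper epidermis (chromosome 15, 101810689 to 101818169), had 5 and 2 reads in the 2KO libraries and 0 and 1 read in the control libraries. The ratio of its summed reads, scaled to library size, was 6.93 with an exact 95% counting interval of 0.890 to 312. Krt77, which is known in human skin from sweat gland ducts (chromosome 15, 101858731 to 101869705), had 5 and 2 reads in 2KO, against 22 and 8 reads in control. Its ratio was 0.231 with a counting interval of 0.0856 to 0.536. Neither gene passed the filter on low counts, and amplified reads are not independent molecules, so these intervals cover counting error only. The deposited FPKM of Krt77 was 0 in 2KO replicate 1, where 5 reads were counted, so for this gene the FPKM and count columns differ.

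**Figure D2:**
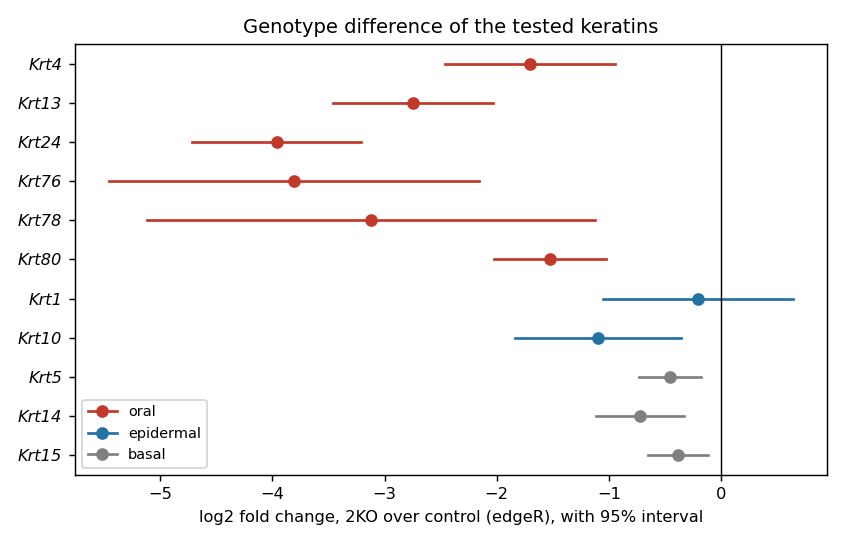
Log2 fold change of 2KO over control for the 8 tested suprabasal keratins and 3 basal keratins, with 95% intervals from the edgeR fit; the line at 0 marks equal levels. The oral keratins lie between -1.52 and -3.96, Krt1 at -0.21 with an interval across 0, and the basal keratins between -0.38 and -0.72.

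Oral genes had a median log2 fold change of -2.93 over 6 and the 2 tested epidermal genes one of -0.65, beside 0.0065 over all genes tested. The oral median was -3.88 without 2KO replicate 1 and -2.29 without 2KO replicate 2, and -2.30 without control replicate 1. The epidermal median was -1.25 without 2KO replicate 1, -0.26 without 2KO replicate 2, -0.18 without control replicate 1 and -0.98 without control replicate 2. The sets were next compared inside each library, where scaling between libraries plays no part, with the deposited FPKM values, which account for transcript length. The summed oral level was 460.0 and 195.5 FPKM in 2KO, against 1821 and 1319 FPKM in control, and the summed epidermal level was 102 and 35.2 FPKM in 2KO, against 99.0 and 56.7 FPKM in control. Oral sums were separated by genotype and epidermal sums were not. The oral sum was 4.52 and 5.55 times the epidermal sum in 2KO, against 18.4 and 23.2 times in control. On the log2 scale the ratio was lower in 2KO by a difference of -2.05, or 4.13-fold, while replicates of a group differed by an SD of 0.224. This ratio is made from the members and was not tested; with 2 libraries against 2, an exact permutation test cannot reach 0.05. The epidermal sum was mostly Krt1, and without Krt1, an alternative chosen after seeing the data, the log2 difference was -1.19.

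Replicates differed more in Krt13, Krt4 and Krt1 themselves than in their ratios. In 2KO, replicate 1 exceeded replicate 2 by 2.29-fold for Krt13, 2.48-fold for Krt4 and 2.78-fold for Krt1 in CPM, and in control the same genes were 1.44-fold, 1.57-fold and 1.77-fold higher in replicate 1. Of all tested genes, 4.23% were at least 1.5-fold higher in replicate 1 in both genotypes, a cut that Krt13 missed in control. Krt10, Krt76 and Krt78 were also higher in replicate 1 in both genotypes. Krt24 was not in control (0.928-fold), nor was Krt80 in 2KO (0.972-fold). For basal keratins the same ratios, in 2KO and then control, were 0.991 and 1.14 for Krt15 and 0.968 and 1.23 for Krt5. For Krt14 they were 0.868 and 1.46, so in control Krt14 differed about as much as Krt13. Set against Krt1, Krt13 was 2.42 and 2.89 times as abundant in 2KO FPKM, against 13.3 and 17.1 times in control. Krt4 was 2.00 and 2.26 times as abundant as Krt1 in 2KO, against 5.79 and 6.66 times in control. Ratios from counts gave nearly the same folds between genotypes, 5.73 for Krt13 over Krt1 and 2.80 for Krt4 over Krt1, beside 5.71 and 2.92 from FPKM. The part of cell composition in the shared replicate differences was not tested.

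**Figure D3:**
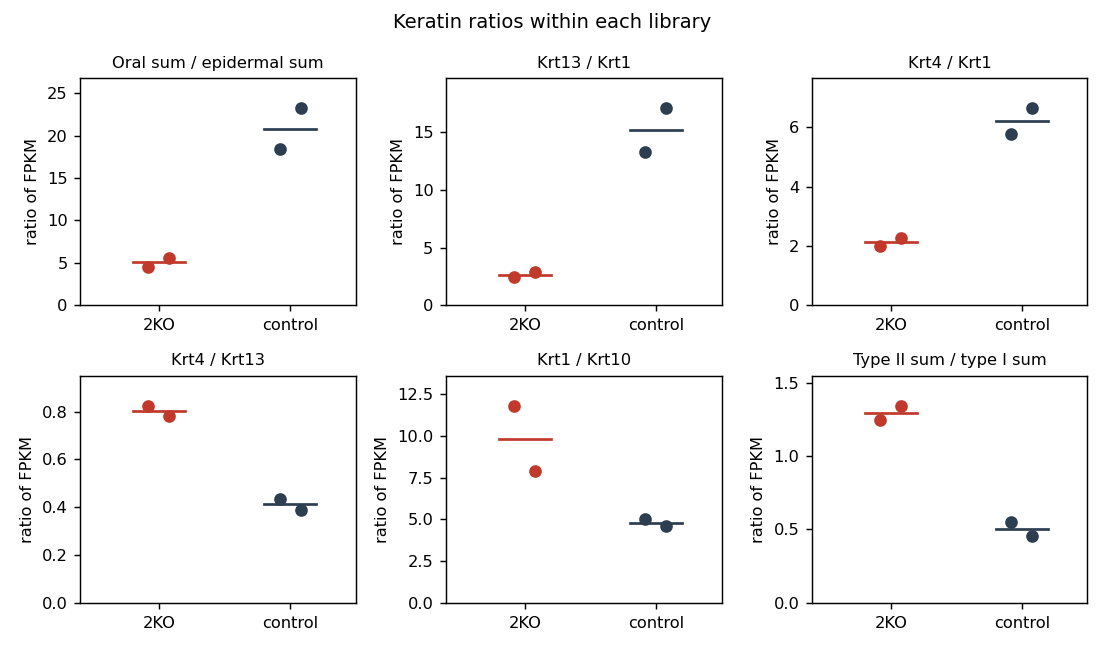
Ratios of deposited FPKM inside each library, 2KO at left and control at right, with points for libraries and bars for group means, all axes starting at 0. The oral to epidermal ratio is 4.52 and 5.55 in 2KO and 18.4 and 23.2 in control, whereas Krt4 over Krt13 and the type II to type I ratio are higher in 2KO.

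Inside each filament pair the balance did not overlap between genotypes, a pattern that single genes often showed in these libraries. In CPM, both 2KO libraries lay below both control libraries for 28.7% of all genes tested, and above them for 29.0%. Krt4 stood at 0.825 and 0.784 times the Krt13 level in 2KO, against 0.435 and 0.389 times in control. Krt1 stood at 11.8 and 7.87 times the Krt10 level in 2KO, against 5.03 and 4.59 times in control. From counts the Krt1 to Krt10 ratio was 14.2 and 7.29 in 2KO, against 6.24 and 5.92 in control, so 2KO replicate 2 lay close to control. The rise from counts was 1.67-fold, against 2.01-fold from FPKM. The number of counts behind 1 FPKM of Krt10 varied by 1.604-fold between libraries. An antisense gene, Gm11940, covers 6.91% of Krt10 exon bases. Summed over all members, type II chains were 1.25 and 1.34 times the type I chains in 2KO, against 0.548 and 0.458 times in control. The groups did not overlap in any of these ratios, which were not tested. Krt76, a type II chain found with Krt10 in the palate, stood at 0.0951 and 0.103 times the Krt10 level in 2KO, against 0.750 and 0.231 times in control.

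The basal keratins had smaller fold changes. Krt5 had a log2 fold change of -0.45 (standard error 0.13, adjusted p = 0.0392), Krt14 of -0.72 (0.18, adjusted p = 0.0248) and Krt15 of -0.38 (0.12, adjusted p = 0.0641). Both calls ended without control replicate 1 (Krt5 -0.27, adjusted p = 0.112; Krt14 -0.40, adjusted p = 0.0674). They held in 10 and 11 of 15 alternatives, with adjusted p ranging over 0.000335 to 0.712 and over 8.14e-06 to 0.263. Oral members made up 5.47% and 2.72% of the FPKM of all 55 keratin genes in the files in 2KO, against 13.1% and 11.4% in control. Relative to Krt5 plus Krt14, they amounted to 12.7% and 5.72% in 2KO, against 32.5% and 29.6% in control. Epidermal members amounted to 2.80% and 1.03% of Krt5 plus Krt14 in 2KO, against 1.77% and 1.27% in control, and the groups overlapped. The reduction of oral keratins was thus also present when levels were read against the basal keratins of the same library, and the total over all keratin genes also lay lower, at 8403 and 7198 FPKM in 2KO, against 13913 and 11579 FPKM in control.

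The rank order of the members by FPKM differed between genotypes. In 2KO the order of means was Krt13 (158 FPKM), Krt4 (129 FPKM), Krt1 (62.4 FPKM), Krt80 (30.0 FPKM), Krt24 (9.94 FPKM) and Krt10 (5.95 FPKM), followed by Krt76, Krt78, Krt2 and Krt77 at under 1 FPKM. In control it was Krt13 (946 FPKM), Krt4 (393 FPKM), Krt24 (132 FPKM), Krt80 (88.5 FPKM), Krt1 (64.4 FPKM), Krt10 (13.3 FPKM), Krt76 (7.31 FPKM) and Krt78 (1.93 FPKM), with Krt77 and Krt2 under 1 FPKM. Krt24 thus stood above Krt80 and Krt1 in control and below both in 2KO, where Krt1 followed Krt4 directly. In 2KO the values of Krt13 overlapped those of Krt4, those of Krt4 overlapped Krt1 and those of Krt24 overlapped Krt10, so these neighbours were not separated by their spread. In control the overlapping neighbours were Krt80 with Krt1 and Krt10 with Krt76. Among the lowest 4 genes in 2KO all neighbours overlapped.

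Within the keratin gene clusters, called and uncalled genes lay next to each other in several places. The type II cluster (chromosome 15, 101347444 to 102032027) holds 27 keratin genes, of which 15 were tested, 8 were called lower and 1 higher. The type I cluster (chromosome 11, 99232761 to 100269871) also holds 27, of which 19 were tested, 8 were called lower and 0 higher. On chromosome 15 the order runs Krt2, Krt1, Krt77, Krt76, Krt4, Krt79, Krt78 and Krt8. Krt76 and Krt4, 25614 bases apart, were both called lower, whereas Krt79, 4596 bases beyond Krt4, had a log2 fold change of 0.74 (not called), and Krt78, 5676 bases further on, was called lower. Krt8, a keratin of simple epithelia on the far side of Krt78, was at -0.0049. On chromosome 11 Krt13 lies between the hard keratin Krt36 and the basal Krt15, not called at -0.38. Krt36 was called lower, with means of 0.0527 FPKM in 2KO and 3.85 FPKM in control. Krt24 and Krt10 are separated by 4 keratin genes, none with enough counts to be tested. Of the 26 tested keratin genes outside the 10 members, 10 were called lower, 1 higher and 15 neither, with a median log2 fold change of -0.49. Over all genes tested, 4.92% were called lower and 7.00% higher. Among those 10, Krt84 (-9.08), Krt36 (-6.34) and Krt6b (-4.23) had lower values than any oral member. Krt84 averaged 0.0146 FPKM in 2KO. The gene called higher was Krt18 (0.82). A strong fall was thus not particular to the oral set.

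**Figure D4:**
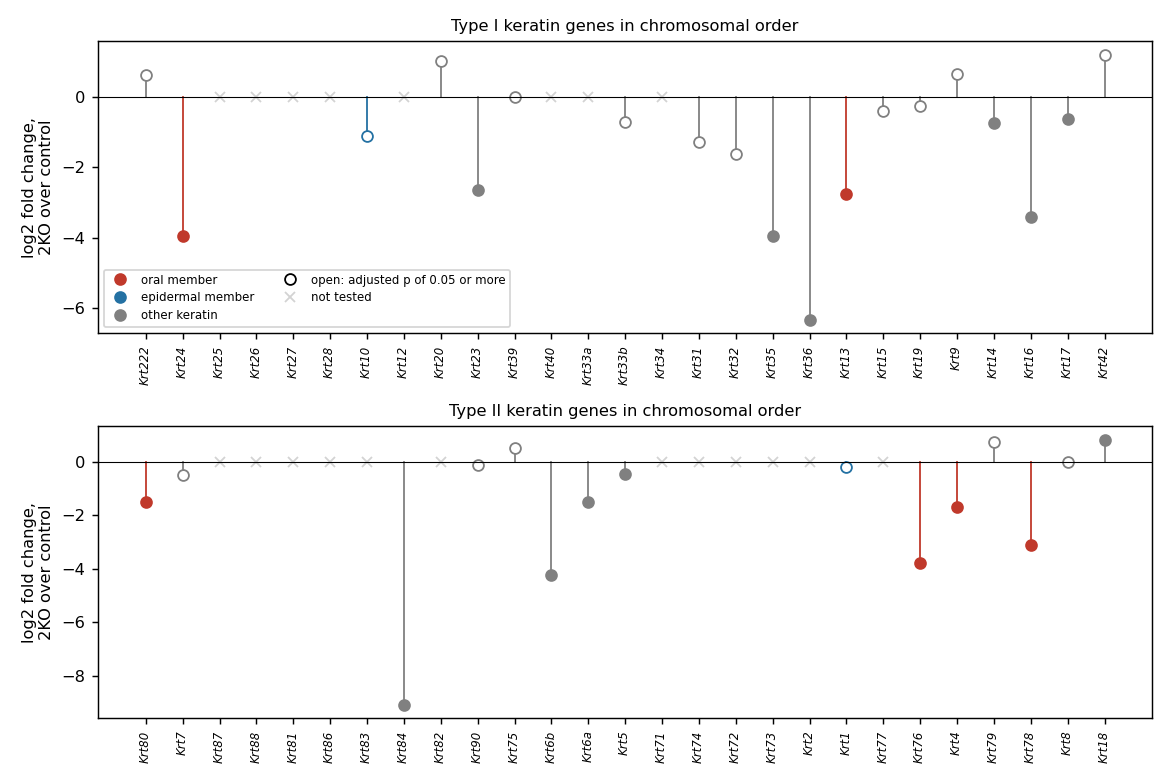
Log2 fold change of 2KO over control for keratin genes in chromosomal order, type I above and type II below, with oral members in red, epidermal members in blue and other keratins in grey. Filled points passed an adjusted p of 0.05, open points did not, and crosses on the zero line mark untested genes, which have no value; called and uncalled genes are interspersed in both clusters.

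Genes with the most similar profile over the 4 libraries were ranked by the root-mean-square difference in centred log2 CPM. Nearest to Krt13 were Dsg1a, a desmosomal cadherin of upper layers (difference 0.117), Pdzk1ip1 (0.146), Sbsn, which encodes suprabasin (0.148), Sdr16c5 (0.174) and the transglutaminase gene Tgm5 (0.212). Near Krt4 were Snora65, Mfap5, Ccr10 and Gpbar1, at 0.0848 to 0.107, which averaged under 3 CPM in either group. Nearest to Krt1 were Kctd21, the nuclear long noncoding RNA Neat1, Shf, Map6d1 and Gm5434, at 0.0851 to 0.115, none of them called. Nearest to Krt10 were Fam46b, Serpinb6b, Fam109b, Dpt and AW146154, at differences of up to 0.0792, none of them called. With 4 libraries many genes share any profile, so these names describe likeness of values only.

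Other genes of upper layers were counted from lists chosen with earlier results of these data known. The counts stand beside 4.92% of all genes tested that were called lower and 7.00% called higher. Of 22 tested oral and oesophageal suprabasal genes other than keratins, 9 fell and 0 rose, with a median log2 fold change of -0.87. They included Endou, at 2.997 ± 2.42 CPM in 2KO and 52.7 ± 7.44 CPM in control (SD, n = 2 each), and Tgm3, a cross-linking enzyme of the cornified envelope, at 15.0 ± 4.14 CPM in 2KO and 72.4 ± 16.98 CPM in control. Of 21 tested epidermal suprabasal genes other than keratins, 13 fell and 1 rose, with a median of -1.68. Dsg1a was at 31.1 ± 18.1 CPM in 2KO and 243 ± 59.7 CPM in control, and Alox12b, an enzyme of the skin's lipid barrier, at 1.47 ± 0.157 CPM in 2KO and 28.5 ± 4.31 CPM in control. The riser, singled out after its values were seen, was the loricrin gene Lor, at 14.2 ± 3.83 CPM in 2KO and 3.31 ± 1.36 CPM in control (log2 fold change 2.09, adjusted p = 0.0129). Without 2KO replicate 2 this call ended (1.78, adjusted p = 0.0696; range 0.000114 to 0.0972 over its alternatives). So genes of the epidermal programme other than keratins were called lower in libraries in which Krt1 and Krt10 were not. Krt10 narrowly missed the threshold at -1.10 (edgeR adjusted p = 0.0582). The untested Krt77 had fewer reads in 2KO and the untested Krt2 had more. A split between epidermal keratins and these other genes was not tested and is not shown. Of 45 tested regulators of suprabasal differentiation, 8 fell, 8 rose and 29 did not pass, with a median of -0.01. Those that rose included the receptor gene Notch1 (log2 fold change 1.47, adjusted p = 0.000784), the transcription factor genes Gata3 (3.88, adjusted p = 0.000549) and Runx1 (1.82, adjusted p = 0.000763). Those that fell included Pax9, a factor of oral and pharyngeal epithelium (-1.13, adjusted p = 0.000763).

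Some markers of other cell types differed with the genotype or in single libraries, and their part in the keratin values was not tested. Among all genes tested, 4.92% were called lower and 7.00% higher. The summed level of 10 endothelial markers was 45.9 and 65.6 CPM in 2KO, against 32.1 and 27.1 CPM in control, with 0 of 10 called. That of 10 skeletal muscle markers was 65.2 and 80.8 CPM in 2KO and 65.7 and 393 CPM in control, so control replicate 2 stood apart, with 0 of 9 tested called. Without control replicate 2, 6 oral and 1 epidermal keratin were called lower. Mesenchyme markers summed to 428 and 417 CPM in 2KO and 357 and 427 CPM in control, with 1 of 10 called lower. Blood and immune markers summed to 56.7 and 45.9 CPM in 2KO and 30.5 and 24.7 CPM in control, with 1 of 3 tested called higher and the haemoglobin genes Hba-a1 and Hba-a2 at 0 in all libraries. Neuron and glia markers summed to 18.9 and 21.3 CPM in 2KO and 28.5 and 23.5 CPM in control, with 1 of 9 tested called in each direction. Melanocyte markers summed to 13.8 and 14.2 CPM in 2KO and 10.05 and 12.3 CPM in control, with 0 of 2 tested called and Tyr and Tyrp1 at 0. Markers of Merkel cells and simple epithelium summed to 289 and 238 CPM in 2KO and 209.9 and 253 CPM in control. Of these, 1 of 5 tested was called higher. Those of salivary gland summed to 278 and 257 CPM in 2KO and 258 and 296 CPM in control. Here 1 of 5 tested was called in each direction, and Prol1 and Bpifa2 were at 0. The gene called higher was Krt18 in both lists, which also share Krt7 and Krt19.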

How the data were processed

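RNA of 4 libraries was analysed, 2 of 2KO and 2 of control. Per the labels' protocols, RNA was amplified before single-end sequencing (100 nucleotides). The authors deposited whole-number counts and FPKM values per gene. The submitters' processing notes name DESeq2 1.6.3, HTSeq 0.6.1, Cufflinks 2.2.1, TopHat2 2.0.13 and the build mm10; the sources used here do not give each tool's role, the annotation, the strand setting or the handling of reads that match several keratins.

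For counts, edgeR 4.0.16 (R 4.3.3) was run with TMM scaling, its filterByExpr filter, a two-sided quasi-likelihood test with genotype as the single term and Benjamini-Hochberg adjustment over 15336 genes. Standard errors were derived from the test statistic, and 95% intervals from its t distribution. Alternatives were other scalings, filters, DESeq2 1.42.0, limma-voom and limma-trend (limma 3.58.1) on log2(FPKM + 1) or log2(FPKM + 0.1), a replicate block and each library left out. Members, lists and alternatives were chosen with earlier results of these data known. Named genes were the members, the targeted, basal and sort marker genes, up to 6 called genes per list in order of p (the text gives examples), the 5 nearest profiles per main keratin and adjacent keratin genes. Some genes that this rule names are not reported here.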

Additional observations from a re-analysis of the deposited data

How the results depend on the processing

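The signs of the member keratins' log2 fold changes stayed negative in all 15 alternatives for the 6 oral genes and Krt10. Filtered FPKM values gave, at pseudocounts of 1 and 0.1: 627 and 472 genes higher, 260 and 186 lower and 3 oral keratins (Krt13, Krt24 and Krt80) lower in each, against 1073 genes higher and 754 lower from counts. Without that filter 0 genes and 0 oral keratins passed, while 3764 genes had an unadjusted p under 0.05. The oral median was -1.91 at a pseudocount of 1, filtered or not, which compresses low genes. With no filter on low counts 1242 genes were lower. The number of epidermal keratins called lower was 1 with DESeq2, with no filter on low counts and with the replicate block, in each case Krt10, against 0 in the reported fit.

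With each library left out, 839 to 1643 genes were higher and 537 to 1104 lower, 4 to 6 oral keratins and 0 to 2 epidermal keratins were lower, and the medians were -3.88 to -2.29 (oral) and -1.25 to -0.18 (epidermal); the highest count, 1643, was without control replicate 1. A group left with 1 library is assumed there to vary like the other. The log2 difference in the oral to epidermal ratio was -1.65 without Krt13 and -1.19 without Krt1, an alternative chosen after seeing the data, against -2.05 with all members, and -2.21 to -1.88 with each library left out. Over all 15336 genes tested, deviations of same-numbered libraries were not correlated (correlation -0.0232). That value cannot show whether the numbers pair libraries for a part of the genes, and the labels state no pairing. The edgeR fit with the replicate block gave 1156 higher and 880 lower genes, and Krt10 an adjusted p of 0.0294. Depth limits Krt2 and Krt77, where 3 reads in a library correspond to 0.147 to 0.176 CPM.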
